A study of Mus musculus with 12 samples.

Results

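The 10 genes described here encode the immediate early transcription factors of the EGR and AP-1 families with 2 close companions: Egr1, Egr2, Egr3, Fos, Fosb, Fosl1, Jun, Junb, Ier3 and Atf3. They were taken by symbol from the 23102 genes measured in 12 oral tumours, and all 10 were found. The set was chosen by the measured difference of Egr2, which was higher in tumours carrying an HPV transgene in these same arrays, to see whether other early genes share it. That difference is therefore a description, with no test. The other 9 were named with results of these data known, and their test results say only where they stand among all genes.

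All tumours came from C57BL/6 × FVB F1 mice injected intraperitoneally with tamoxifen. The 6 tumours written KR expressed RAS. The 6 tumours written KHR expressed RAS and a transgene written iHPV, for which a further label names HPV E6, so that RAS and tamoxifen were common to both groups. The sources used here do not give the promoter that drives the transgenes, the cells in which they are active, the RAS allele, or the sex and age of the animals. Whether each tumour is from an animal of its own is likewise unstated, and p-values therefore cover the spread among these samples alone, part of which may be technical. Each tumour gave 1 Affymetrix Mouse Gene 2.0 ST array, and the level of a gene is the median log2 intensity of the probesets assigned to it alone. The array medians lay between 5.62 and 5.75, and the number of arrays limits the precision. The squamous epithelial keratins Krt5 and Krt14 stood at 13.19 ± 0.12 and 12.98 ± 0.06 in KR tumours and at 13.17 ± 0.14 and 13.08 ± 0.17 in KHR tumours (SD, n = 6 each), so that these general markers of stratified epithelium were present in both groups. Of 18 squamous markers 1 fell in KHR tumours, the oral keratin Krt13, from 12.78 ± 0.27 to 11.52 ± 0.54 (SD), by 1.26 ± 0.22 (SE; limma adjusted p = 0.00571). Its oral partner Krt4 was at 11.57 ± 1.25 and 9.83 ± 1.64, and Epcam at 10.48 ± 0.46 and 11.36 ± 0.50 (SD; adjusted p = 0.24 and 0.067). The part of these markers in the differences below was not tested.

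Immediate early genes are switched on within minutes of a growth factor, stress or wounding signal, without new protein synthesis, and their transcripts are short-lived. RAS signals through RAF, MEK and ERK to ternary complex factors and SRF, which bind CArG boxes in the promoters of such genes, while stress kinases and cyclic AMP act through ATF and CREB proteins at CRE sites. EGR proteins are zinc finger factors that bind GC-rich sites, and the NAB corepressors limit them. FOS and JUN proteins pair through leucine zippers to form AP-1, a regulator of keratinocyte proliferation, invasion and differentiation. Egr2, also called Krox20, is best known from hindbrain patterning, myelinating Schwann cells and the hair follicle.

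The sequences just upstream of 3 of these genes are shown because Egr2 is the gene with the large difference, and because Fos, the classical gene of this kind, and Ier3 had no such difference. They are from RefSeq, build GRCm38.p6, and hold the 250 bases before an annotated start (for Egr2 the first of its starts with the most matches) on the plus strand, 5′ to 3′. Capitals mark a CArG box or the CRE core TGACG, searched on both strands, so that CGTCA is the core on the other strand.
Egr2, chr10:67537619-67537868: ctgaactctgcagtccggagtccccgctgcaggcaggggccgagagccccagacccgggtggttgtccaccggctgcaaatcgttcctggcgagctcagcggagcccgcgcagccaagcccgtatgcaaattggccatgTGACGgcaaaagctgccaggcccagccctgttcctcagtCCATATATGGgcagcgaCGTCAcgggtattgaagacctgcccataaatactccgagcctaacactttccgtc
Fos, chr12:85473640-85473889: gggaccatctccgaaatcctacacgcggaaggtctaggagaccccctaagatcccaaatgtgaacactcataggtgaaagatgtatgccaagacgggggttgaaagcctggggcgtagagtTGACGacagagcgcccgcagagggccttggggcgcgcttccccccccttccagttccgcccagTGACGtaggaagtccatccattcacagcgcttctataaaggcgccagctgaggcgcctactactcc
Ier3, chr17:35821463-35821712: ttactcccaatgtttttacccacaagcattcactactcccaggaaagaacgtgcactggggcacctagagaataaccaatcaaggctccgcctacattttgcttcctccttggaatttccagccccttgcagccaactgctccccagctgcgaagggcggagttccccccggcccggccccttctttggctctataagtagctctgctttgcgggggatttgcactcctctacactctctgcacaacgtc

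RefSeq windows were found for 7 of the 10 genes, the other 3 being Egr1, Egr3 and Fosl1. Of these 7, a CArG box was found in windows of Egr2 alone, in 4 of its 5, against 1.47% of all 32851 windows. The other genes had 1 window each. Some of the Egr2 windows overlap and share a box. In the sequence printed, the box begins 72 bases before the start. The CRE core was found upstream of 5 of the 7 (Atf3, Egr2, Fos, Fosb and Junb), against 17.8% of all windows. The AP-1 site TGANTCA was in none of the 7 (6.75% of all windows), the EGR site GCGNGGGCG in that of Fosb (4.7%) and the sequence TATAAA in that of Fos (12.4%). A match describes the letters of these 250 bases only, and a box farther upstream, of Fos or another gene, would not be found. Whether a box has a part in the difference of Egr2 was not tested.

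Among the EGR factors, Egr2 was the gene on whose difference the set was chosen. It ranged from 4.82 over a median of 5.82 to 7.55 in KR tumours and from 7.15 over 7.94 to 8.34 in KHR tumours. All 6 KHR tumours lay above the KR mean and 5 lay above the highest KR tumour, which was KR 3, so the groups overlapped in KHR 1 alone. The means were 6.05 ± 0.96 and 7.92 ± 0.42 (SD, n = 6 each), a difference of 1.87 ± 0.37 (SE; KHR minus KR, log2) or 3.66-fold, with a 95% interval of 1.08 to 2.66. That interval takes no account of the choice of Egr2 on this difference and is not read as a test. With any 1 array left out the difference of Egr2 lay between 1.63, without KR 2, and 2.17, without KR 3.

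Egr1, the widely induced founder of the family, ranged from 5.81 over a median of 7.50 to 8.84 in KR tumours and from 6.49 over 8.02 to 8.73 in KHR tumours. No KHR tumour exceeded the highest KR tumour. Its difference was 0.40 ± 0.45 (SE; limma adjusted p = 0.746), with an interval of -0.56 to 1.37. Egr3, which shares the EGR zinc fingers and is known from muscle spindles and lymphocytes, ranged from 7.42 over 7.71 to 9.05 in KR and from 7.18 over 7.99 to 8.37 in KHR tumours. Its difference was -0.13 ± 0.28 (SE; adjusted p = 0.894) and its interval reached 0.47. The difference of Egr1 shrank to 0.06 without KR 6, the KR tumour in which it was lowest, and that of Egr3 was 0.08 without KR 3.

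**Figure D1:**
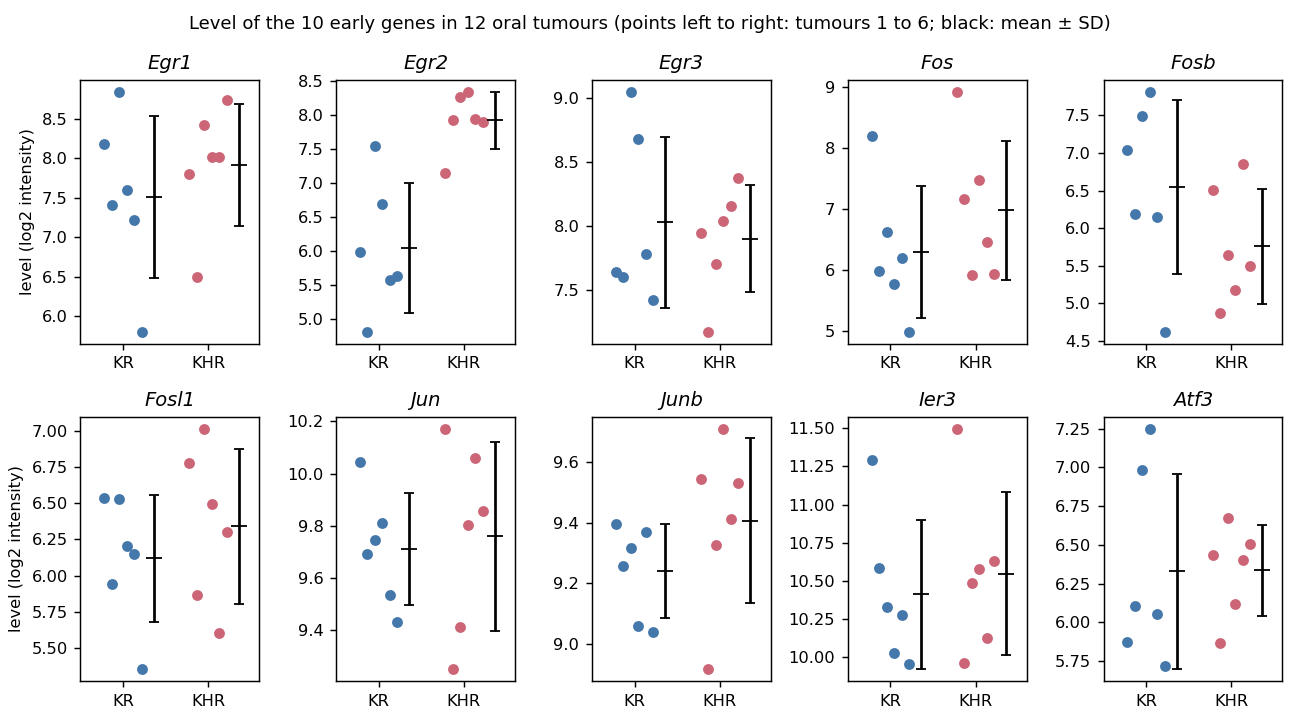
Level of each gene (log2 intensity, vertical axes with separate ranges) in the 6 KR and 6 KHR tumours, points ordered left to right by tumour number, with the mean and SD in black. Egr2 is the panel in which 5 of 6 KHR tumours lie above every KR tumour; in the other panels the groups lie across each other.

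The FOS genes went in opposite directions without passing the test. Fos, the partner of JUN in the classical AP-1 dimer, ranged from 4.99 over a median of 6.09 to 8.19 in KR tumours and from 5.92 over 6.80 to 8.92 in KHR tumours. The high values were those of KR 1 and KHR 1, and 1 KHR tumour exceeded the highest KR tumour. The difference was 0.68 ± 0.55 (SE; adjusted p = 0.620), with a wide interval of -0.50 to 1.86 that ends just under the difference of Egr2. It was 0.29 without KHR 1 and 1.06 without KR 1.

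Fosb, a FOS protein that accumulates under repeated stimulation, was lower on average in KHR tumours. It ranged from 4.62 over a median of 6.61 to 7.82 in KR and from 4.88 over 5.57 to 6.85 in KHR tumours, and 1 KHR tumour lay above the KR mean. The difference was -0.79 ± 0.49 (SE; adjusted p = 0.484), with an interval of -1.84 to 0.26. Leaving out KR 6, the lowest KR tumour, moved it to -1.18. Fosl1, or FRA-1, which is induced later and is known from invasive carcinoma, differed by 0.22 ± 0.25 (SE; adjusted p = 0.748). Its value rested on 2 probesets. A further 3 probesets, shared with Ccdc85b, averaged 9.43 in KR and 9.76 in KHR tumours and were not used.

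The JUN partners showed narrow intervals around 0. Jun, the main stress-activated AP-1 subunit, stood at 9.71 ± 0.22 in the KR and 9.76 ± 0.36 in the KHR group (SD, n = 6 each), a difference of 0.05 ± 0.16 (SE; adjusted p = 0.936) with an interval of -0.29 to 0.39. Junb, which restrains JUN and keratinocyte proliferation, stood at 9.24 ± 0.16 and 9.41 ± 0.27, and 4 of 6 KHR tumours exceeded the highest KR tumour. Its difference was 0.17 ± 0.13 (SE; adjusted p = 0.590), with an interval of -0.10 to 0.44.

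The companions of the 2 families differed by less than the spread between tumours. Ier3, an early gene that modulates ERK and NF-kappaB signalling and cell survival, was at 10.41 ± 0.49 in the KR and 10.55 ± 0.53 in the KHR group (SD, n = 6 each; difference 0.14 ± 0.26, SE; adjusted p = 0.874). Atf3, the stress-induced ATF factor that can pair with JUN, was at 6.33 ± 0.63 and 6.34 ± 0.29 (difference 0.01 ± 0.25, SE; adjusted p = 0.995), and its difference was negative in most alternative settings. For Atf3 the KR tumours were split, with KR 3 and KR 4 at 6.98 and 7.25 and the other 4 at or below 6.11.

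Of the 9 genes other than Egr2, 7 were higher and 2 lower on average in KHR tumours, and 0 passed the threshold in limma, with 0 at an unadjusted p under 0.05. With the median over probesets, the 95% intervals of Egr1 and Fos end at 1.37 and 1.86 and overlap that of Egr2, which begins at 1.08. With the mean over probesets the difference of Egr1 was 0.12, against 0.40 with the median. The interval of Egr2 takes no account of its choice, and whether Egr2 differed more than these genes was not tested. The median difference of the 9 genes was 0.14, against 0.00 over all genes. With Egr2 counted, 1 of 10 was called higher, where 2.71% of all genes were called higher, 1.03% lower and 3.74% in either direction. Since the set was chosen on Egr2, nothing is read from that count. No gene of the 10 had groups that do not overlap, where 1.83% of all genes had every KHR tumour above, 0.84% every KHR tumour below and 2.67% either. Over all genes 72.4% of calls were higher in KHR tumours (56.8% with quantile normalization), and the 863 calls became 531 without KR 2 and 523 without KHR 4. The intervals of Egr1, Fos and Fosb were wide, and differences within them were not detectable with 6 tumours a group.

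**Figure D2:**
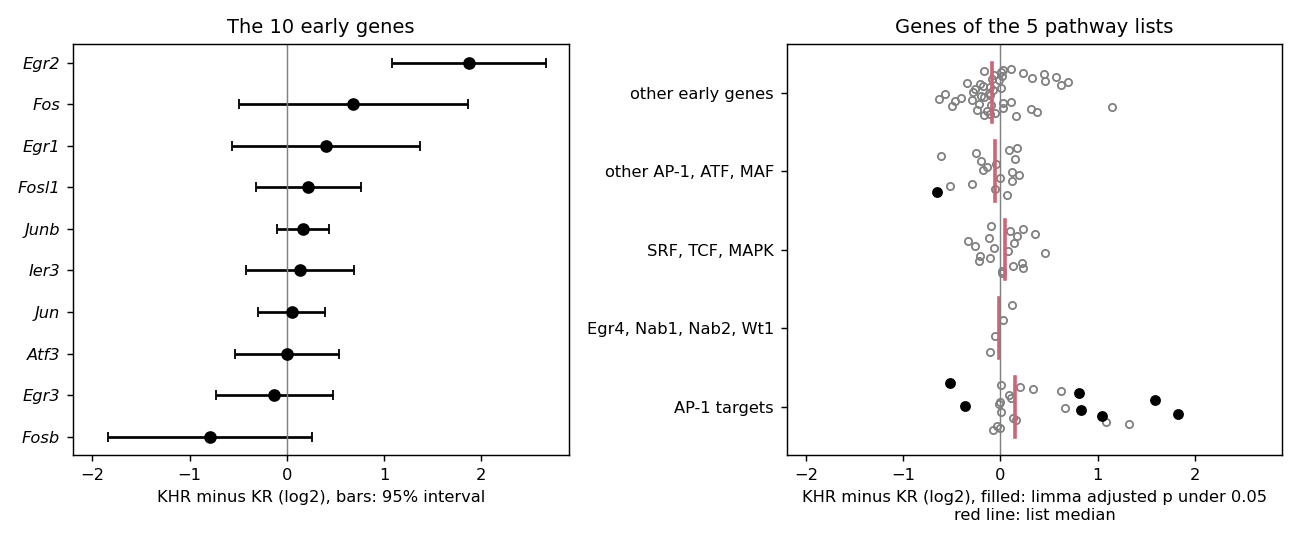
Left, difference KHR minus KR (log2) of each of the 10 genes with its 95% interval from limma; right, differences of the genes of 5 pathway lists, filled where the limma adjusted p was under 0.05, with the list median as a red line. Egr2 is at 1.87, and its interval from 1.08 to 2.66, which takes no account of its choice, overlaps those of Fos and Egr1. No gene of the list of other early genes is filled.

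The 10 probesets of Egr2 differed in how far the groups parted. All 10 had a higher mean in KHR tumours, with differences from 0.20 to 2.88. In 5 of the 10 every KHR tumour lay above every KR tumour, where 1.09% of all probesets with 1 symbol did so. These are the values that chose the set, so nothing is read from that count. Number 9 in order of ID ran from 7.83 to 9.05 in KR and from 9.80 to 11.25 in KHR tumours. Number 1 hardly parted the groups (7.85 against 8.05), and number 8 was dim in both (3.67 against 4.49). The groups were 1.76 apart with the mean over these probesets and 1.86 with median polish, against 1.87 with the median.

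Single probesets of Fos and Fosb did not follow the rest of their gene. These 3 were picked out after their values were seen. Number 4 of the 8 Fos probesets stood at 8.15, 6.95 and 7.19 in KHR 1, KHR 2 and KHR 4, and between 3.72 and 4.73 in the other 9 tumours. Number 3 of Fos was at 6.84, 6.24 and 6.05 in the same 3 tumours. Number 5 of Fos was at 10.59 in KHR 1 but at 10.08 in KR 1, where number 4 read 3.76. Among the 6 probesets of Fosb, number 3 had every KHR tumour (4.13 to 5.90) below every KR tumour (6.56 to 7.63), which held for 0.694% of all probesets with 1 symbol. The other 5 overlapped, with differences from -0.84 to -0.28. Which part of a transcript a probeset covers is not given in the sources used here.

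**Figure D3:**
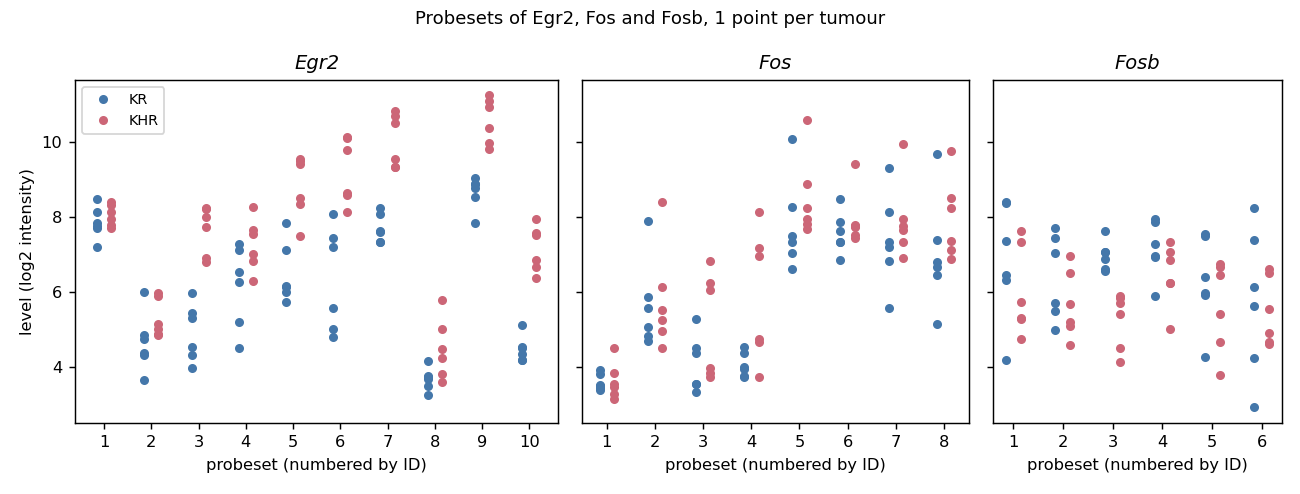
Levels (log2 intensity) of each probeset of Egr2, Fos and Fosb, numbered by ID, with 1 point per tumour in blue for KR and red for KHR. Egr2 parts the groups at 5 of 10 probesets, Fos at none of 8 and Fosb at 1 of 6, in the opposite direction.

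Of 47 other early genes measured, among them the NR4A receptors, Ier2, Dusp1, Zfp36, Klf4, Myc and Ptgs2, 0 passed in limma, where 3.74% of all genes did, and 19 were higher on average. An unadjusted p under 0.05 was found for 10 of the 47, and for 15.9% of all genes. Their median difference was -0.09, and the range ran from -0.63 to 1.15. The 2 with the smallest p were the growth regulator Myc, at -0.57 ± 0.17 (SE; adjusted p = 0.0887), and Errfi1, an inhibitor of the EGF receptor, at 0.46 ± 0.14 (adjusted p = 0.0902). Some of the 47 were called under other settings. Of these, Rgs2, a regulator of G protein signalling, was higher by 1.15 ± 0.37 and Hbegf, a ligand of the EGF receptor, by 0.62 ± 0.20 (SE; adjusted p = 0.118 and 0.114). Rgs2 was called with the replicate number as a block, Hbegf with probesets averaged and without KHR 2, and Errfi1 with array weights, all higher in KHR tumours. Myc and Nr4a2, both lower, were called when probesets were averaged and when they were combined by median polish, and Myc also with the block and without KR 4 or KHR 1.

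The partners and inputs of the 2 families were taken as 3 lists, to be read against the 3.74% of all genes that passed. Among the EGR relatives, Egr4 and the corepressors Nab2 and Nab1 differed by 0.11 ± 0.23, -0.06 ± 0.14 and 0.03 ± 0.11 (SE), and Wt1 by -0.11 ± 0.10; 0 of these 4 passed in limma and 0 had an unadjusted p under 0.05 (adjusted p from 0.674 to 0.951). Of 18 other AP-1, ATF and MAF genes, 1 fell and 0 rose, or 5.56%. That gene, Mafg, a small MAF partner of CNC factors, fell from 6.62 ± 0.14 to 5.96 ± 0.35 (SD, n = 6 each), by 0.66 ± 0.14 (SE; adjusted p = 0.0222). Without KR 2 or KR 6 the call was lost (adjusted p at most 0.0567). It was also lost with median polish and with the mean over probesets, which gave -0.25 (adjusted p = 0.122). Atf5 and Maf differed by -0.61 ± 0.19 and -0.52 ± 0.15 (SE; limma adjusted p = 0.0969 and 0.0856). Atf5 was called with the mean over probesets, with median polish and with the replicate number as a block. Maf was called with quantile normalization and without KHR 2. Of 20 SRF, TCF and MAPK pathway genes 0 passed in limma and 4 had an unadjusted p under 0.05. The smallest were those of the JNK gene Mapk8, at 0.45 ± 0.14, and the ternary complex factor Elk4, at 0.36 ± 0.12 (SE; adjusted p = 0.114 and 0.118). Without KHR 2 Mapk8 was called.

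Of 24 measured genes that AP-1 is known to regulate in keratinocytes, 5 rose and 2 fell, which is 29.2% against 3.74% of all genes, with a median difference of 0.15. The list was drawn up with earlier results of these data known and holds genes already seen to differ, so the share is not independent evidence. The matrix proteases Mmp3 and Mmp13 rose by 1.83 ± 0.33 and 0.83 ± 0.14 (SE; adjusted p = 0.00713 and 0.00423), and Mmp3 by 1.35 with the mean over probesets. The cornified envelope gene Ivl and the cytokine Il1a rose by 1.59 ± 0.30 and 0.81 ± 0.17 (adjusted p = 0.0096 and 0.0178). The calls of Mmp3, Mmp13, Ivl and Il1a held on leaving out each of the 12 arrays, but that of Il1a was lost with the muscle marker mean as a covariate. The gelatinase gene Mmp9 rose by 1.04 ± 0.25, the cyclin gene Ccnd1 fell by 0.52 ± 0.12 and the cornified envelope gene Lor fell by 0.36 ± 0.09 (adjusted p = 0.0317, 0.0346 and 0.0373). These 3 calls were lost on leaving out any of 8, 9 and 10 arrays (adjusted p up to 0.0809). With probesets averaged, Mmp9 differed by 0.65 and Ccnd1 by -0.34 (adjusted p = 0.0763 and 0.0998), while Lor kept its call at -0.48 (adjusted p = 0.00785). Over the 5 lists together 8 of 112 genes were called, and 5 without KR 1, KR 2, KR 3 or KHR 4 and 4 without KR 6.

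From tumour to tumour within a group the early genes varied widely, which the choice of Egr2 did not use. The within-group SD was 1.11 for Fos, 0.98 for Fosb, 0.91 for Egr1 and 0.74 for Egr2, at the 99.0 to 99.8 percentiles of all genes, whose median SD was 0.23. For 8 of the 10 it lay above the 90th percentile. The exceptions were Jun (0.30) and Junb (0.22). KR 6 was the lowest KR tumour in 9 of the 10 genes and lay below the KR mean in all 10. KHR 2 was the lowest KHR tumour in 7. KR 1 was the highest KR tumour in 5, and KR 3 in 3.

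With the group means subtracted, 37 of the 45 pairs of genes were positively correlated over the 12 tumours, with a median Pearson r of 0.44 (-0.30 to 0.85). In a permutation test that shuffled tumours within groups (two-sided, Benjamini-Hochberg over 45 pairs) 0 pairs passed, for Pearson or Spearman coefficients, while 14 and 9 had an unadjusted p under 0.05. The pair with the highest r was Egr3 and Atf3 (r = 0.85, rho = 0.87, permutation p = 0.0087 and 0.0056, adjusted p = 0.136 and 0.143). It was 0.94 among KR and 0.57 among KHR tumours, and 0.58 without KR 3 and KR 4, the tumours farthest from the median. Fosb and Jun followed a similar course (r = 0.69, rho = 0.67, permutation p = 0.0086 and 0.0229, adjusted p = 0.136 and 0.204), with 0.72 without KR 4 and KR 6. For Fos and Ier3 the r of 0.77 (rho = 0.48, permutation p = 0.0125 and 0.139, adjusted p = 0.136 and 0.314) rested on KR 1 and KHR 1, being 0.09 without them. The median r fell to 0.31 without KR 6. With the mean over probesets, Fosb and Atf3 reached r = 0.91 (permutation, adjusted p = 0.0018). With the median over probesets their r was 0.73 (rho = 0.76, permutation p = 0.0162 and 0.0088, adjusted p = 0.136 and 0.143). It was 0.80 among KR and 0.54 among KHR tumours, and 0.56 without KR 4 and KR 6.

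**Figure D4:**
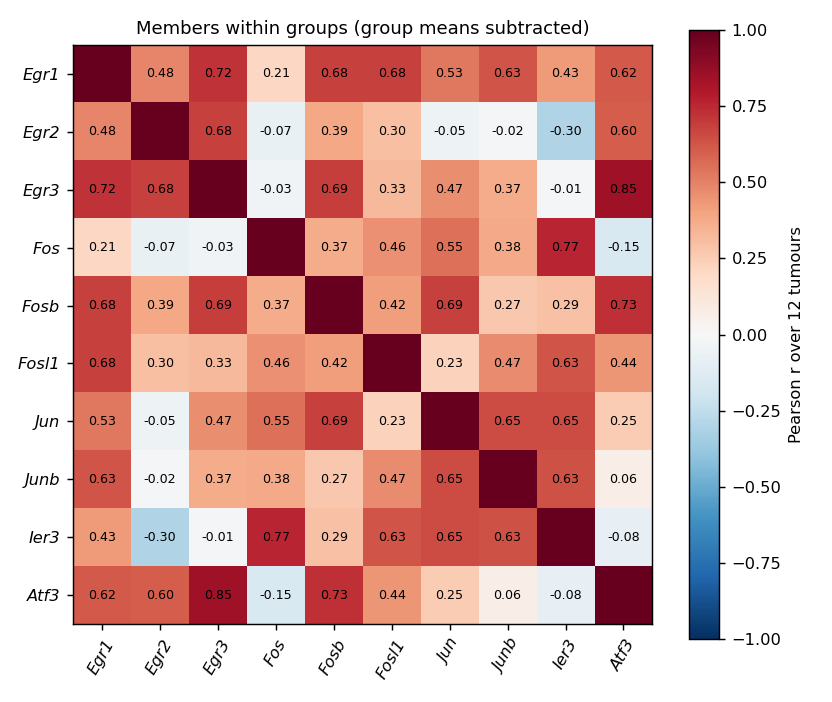
Pearson r of each pair of the 10 genes over 12 tumours with group means subtracted, from blue at -1 to red at 1. Values run from -0.30 for Egr2 with Ier3 to 0.85 for Egr3 with Atf3; 0 of 45 pairs passed the permutation test after adjustment.

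None of the 9 pairs of Egr2 passed that test. Its r was 0.68 with Egr3 (rho = 0.64, permutation p = 0.0353 and 0.039, adjusted p = 0.143 and 0.217), and 0.41 without KR 2 and KR 3. With Egr3 it was 0.90 among the KR and -0.07 among the KHR tumours. With Fos its r was -0.07 (rho = -0.09, permutation p = 0.833, adjusted p = 0.914) and with Ier3 -0.30 (rho = -0.36, permutation p = 0.354, adjusted p = 0.478). Split by group, r with Fos was 0.20 among the KR and -0.68 among the KHR tumours, and r with Ier3 was -0.16 and -0.67.

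The closest partner of each gene was searched within the 47 other early genes only, and is given as a description because it is the highest of 47. For Fosb it was Nr4a1, an orphan nuclear receptor, at r = 0.96 and 0.92 without the 2 tumours farthest from the median. For Egr1 it was Arc at 0.91 (0.71 without 2), for Jun it was Ier2 at 0.89 (0.85), and for Ier3 the mRNA decay factor Zfp36 at 0.88 (0.68). For Egr3 it was Plk3 at 0.79 (0.72) and for Fosl1 Arc at 0.77 (0.80). For Atf3 it was Nr4a3 at 0.85, which fell to 0.35 without 2 tumours, and for Junb it was Btg2 at 0.81, which fell to 0.42. Dusp1, the partner of Fos, is described below. For Egr2 it was Nr4a2 at 0.87 (0.73), which differed between the groups in the other direction, by -0.63 ± 0.21 (SE; limma adjusted p = 0.131). Only 5 of the 47 were dimmer than the median gene, and the share with r above 0.5 is therefore set against genes brighter than it. It was 38.3% for Fosb, where 4.62% of those genes had such an r, and 25.5% for Fos against 8.77%. For Egr2 it was 12.8% against 11%, which is close to the share over those genes.

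Over all genes with a mean above the median level of 4.98, Dusp1, the early phosphatase of MAP kinases, was the most like Fos (r = 0.90, and 0.71 without KR 1 and KHR 1). It was followed by Mir23a, from 1 probeset, Kcnk1, Snx21 and Vkorc1 (r = 0.89, 0.88, 0.87 and 0.87). Without KR 1 and KHR 1 their r fell to 0.69, 0.50, 0.59 and 0.45. The 5 most like Egr2 were the DNA helicase gene Helb, the protease inhibitor gene Reck, the lipoprotein gene Apoc1, Eps8 and Gsdmc4 (r = 0.91, 0.90, 0.90, 0.90 and 0.89), of which Reck was at 0.65, Eps8 at 0.61 and Helb at 0.93 without KR 2 and KR 3. Helb also rose in KHR tumours, by 0.98 ± 0.16 (SE; limma adjusted p = 0.004), while Reck differed by 0.00 ± 0.19 (adjusted p = 0.998). These are the highest of many correlations over 12 tumours and have no test.

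**Figure D5:**
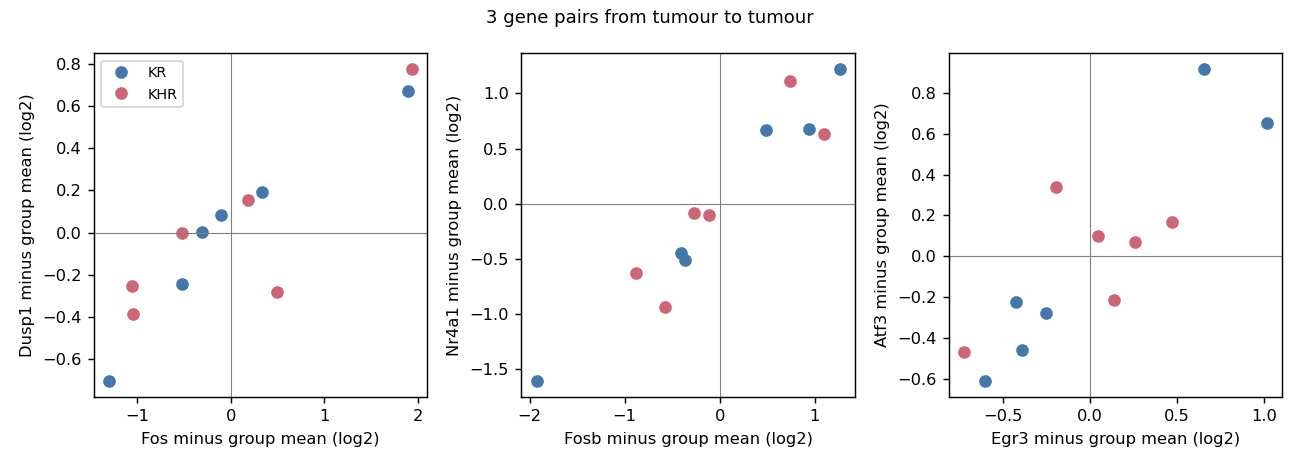
Fos against Dusp1, Fosb against Nr4a1 and Egr3 against Atf3, each as deviation from the group mean (log2), with 1 point per tumour (KR blue, KHR red). In the left panel 1 KR and 1 KHR tumour stand at the upper right, and r is 0.90 with and 0.71 without them; the middle panel (r = 0.96) is spread along its whole range.

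Because these are whole tumours, more cells of a type and more RNA per cell cannot be told apart, and Egr2 is expressed by several cell types. The 13 Schwann cell markers averaged 4.81 ± 0.05 in the KR and 4.78 ± 0.06 in the KHR group (SD, n = 6 each; ranges 4.76 to 4.88 and 4.69 to 4.84), with 0 called in limma and 0 at an unadjusted p under 0.05. Of them 10 lay under the median level over all genes, and Sox10, their defining factor, stood at 3.78 and 3.84. The 14 endothelial markers, among them Pecam1 and Cdh5, had means of 6.33 ± 0.24 and 6.41 ± 0.09 (ranges 6.15 to 6.80 and 6.31 to 6.54) and 0 called in limma (1 at an unadjusted p under 0.05). Within groups Egr2 had an r of 0.73 with the endothelial mean and of 0.65 with that of 15 fibroblast markers. These fibroblast markers averaged 8.11 ± 0.33 and 8.09 ± 0.23 (7.67 to 8.70 and 7.81 to 8.51), 1 of 15 falling.

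Some marker lists had a higher mean in KHR tumours, the hair follicle list by only 0.09. Of 14 macrophage markers all 14 were higher on average in KHR tumours and 1 rose, the mean being 5.54 ± 0.26 in the KR and 5.93 ± 0.33 in the KHR group (SD, n = 6 each; 5.18 to 5.98 and 5.63 to 6.51), and within groups their mean had an r of 0.53 with Egr2. Of 15 neutrophil markers 2 rose, with means of 5.88 ± 0.34 and 6.31 ± 0.18 (5.52 to 6.32 and 6.09 to 6.54), and their within-group r with Egr2 was -0.28. Of 17 hair follicle markers 1 rose, Tchh, by 1.07 ± 0.24 (SE; limma adjusted p = 0.0237), while the list mean was 5.61 ± 0.41 and 5.70 ± 0.36 (4.94 to 6.08 and 5.28 to 6.27), with an r of 0.39. Skeletal muscle markers averaged 5.97 ± 0.46 and 6.45 ± 0.79 (5.37 to 6.59 and 5.36 to 7.60), with 0 of 30 called in limma and 2 at an unadjusted p under 0.05; with their mean as a covariate the difference of Egr2 was 1.76. The 9 mast cell markers averaged 4.16 ± 0.25 in the KR and 4.40 ± 0.20 in the KHR group (SD), all 9 under the median level. Of these 0 were called in limma, and their mean had a within-group r of 0.48 with Egr2. The macrophage mean had a within-group r of 0.54 with Egr3, 0.54 with Fosb and 0.49 with Egr1, none of them called. The part of the macrophage, neutrophil, mast cell, hair follicle, endothelial and fibroblast lists in the difference of Egr2 was not tested.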

How the data were processed

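The authors deposited 1 log2 intensity per probeset and array for 269751 probesets; the base is taken from the range of the values. Partek is named without a version in the submitters' processing notes. The sources used here give no background correction, normalization or genome build.

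Gene symbols came from the platform annotation at GEO, with older symbols updated through the RefSeq table of GRCm38.p6. Of them 233753 had 1 symbol, 5106 several and 30892 none. A gene's value is the median of its probesets with 1 symbol (23102 genes, median 8 probesets). KHR was compared with KR by limma 3.58.1 (lmFit, eBayes) in R 4.3.3, two-sided, over all 12 arrays with no covariate, Benjamini-Hochberg adjustment over all genes and a threshold of 0.05; the fit was tested on simulated data. Correlations used values minus group means and 100000 permutations within groups. Python 3.11.15, numpy 2.4.6 and matplotlib 3.10.9 made tables and figures.

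The members, lists and tests were chosen with earlier results of these data known. All 10 members are named. Of each pathway list, the genes past the threshold (up to 8) or else the 2 with the smallest p are named, and for Egr2 and Fos the 5 genes with the highest r above the median level; other names were chosen after their values were seen. No member was removed by a filter on low values, as none was set.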

Additional observations from a re-analysis of the deposited data

How the results depend on the processing

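The difference of Egr2, on which the set was chosen, lay between 1.63 and 2.17 over 23 alternatives, given as a description. The other 9 were called under none of theirs (adjusted p from 0.158 upwards). The signs of Egr3, Jun, Ier3 and Atf3, none called, changed under some alternatives. The count of called genes was 1445 with the mean over probesets, 555 with the Xist level as a covariate and 523 to 1085 with 1 array left out. Over the 5 pathway lists, an addition made after seeing the data, 5 genes were called with the Xist level and 5 with the muscle mean as a covariate, and 4 to 9 with 1 array left out. Of the 45 pairs, 1 passed (0 otherwise) when probesets were averaged; the cause of these changes was not tested. The replicate number as a block gave 925 genes against 863 and changed no member's call. Tumours of the same number deviated together little over all genes (r from -0.00 to 0.23, above 0.1 for 2 of 6 numbers). With the block the SE of Fos fell from 0.55 to 0.26, that of Ier3 from 0.26 to 0.16 and that of Egr2 from 0.37 to 0.28. Of the members Junb alone had a larger SE with the block (0.134 against 0.126). Whether the numbers pair tumours is not stated in the sources used here. The files hold no detection call, so how far a dim level lies above background is unknown. With the 3 shared probesets added, also after seeing the data, Fosl1 differed by 0.23.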
